A study of Mus musculus with 12 samples.

Results

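Long non-coding RNAs (lncRNAs) are transcripts that are not translated into protein, and much of what they do depends on where in the cell they stay. MALAT1 gathers at nuclear speckles, bodies that hold splicing factors, and NEAT1 is the RNA on which paraspeckles, another kind of nuclear body, are built. NORAD is a mainly cytoplasmic RNA that binds PUMILIO proteins, and other lncRNAs act near the gene they are transcribed from or on a single signaling pathway. All 8 genes described here have been linked to cancer, and SRSF1, the splicing factor whose depletion the study examined in osteosarcoma cells, is itself among the proteins of nuclear speckles.

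The 8 genes were MALAT1, NEAT1, KCNQ1OT1, PVT1, NORAD, DANCR, NKILA and DIRC3, found by full name among the 58735 genes of the table. They were chosen by name with their levels in the 12 libraries already known, and for DIRC3 and NKILA also with the change under siSRSF1-3 and, for NKILA, under siSRSF1-2 known. Those changes, and other comparisons of these 2 genes that share a group with them, are therefore given as a description, with no test. The libraries came from U2OS, a human osteosarcoma cell line, in 4 groups of 3 replicates: untreated cells (blank), cells with the SRSF1 siRNA siSRSF1-2, cells with the SRSF1 siRNA siSRSF1-3, and cells overexpressing the lncRNA LINC01134 (OE-LINC01134). The labels put all libraries in U2OS, as do the results of the paper, where a heat map legend names 3 experimental repeats. The methods, by contrast, place the transient transfections in HOS, another osteosarcoma line. The supplementary methods give 2 biological replicates per condition where the labels give 3. Whether the 3 libraries of a group are biological replicates is therefore not known, and p-values measure the spread between libraries, which may be technical. No library had a control siRNA or an empty vector, so the effect of a treatment and that of its delivery cannot be told apart. The labels name mouse as the organism, but the genes carry human Ensembl identifiers, and the samples were treated as human. In bulk RNA, fewer cells that make a transcript and less of it per cell cannot be told apart.

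Genes held 26237763 to 32954539 reads in each library. Levels are in FPKM, in which reads are divided by the length of the gene in kilobases and by the size of the library, which allows genes of different length to be compared. SRSF1 lay between 19.8 and 35.9 FPKM in blank, between 29.6 and 31.8 FPKM in OE-LINC01134, between 7.09 and 7.46 FPKM with siSRSF1-2 and between 3.33 and 7.90 FPKM with siSRSF1-3. LINC01134 lay between 878 and 1279 FPKM in OE-LINC01134 and at 1.11 FPKM or less elsewhere. In blank, the osteoblast lineage markers SPARC (mean 72.8 FPKM), SPP1 (49.6 FPKM), COL1A1 (29.1 FPKM) and RUNX2 (3.55 FPKM) were present, while COL1A2, IBSP and SP7 were at 0.0309 FPKM or less in every blank library, and the blood cell markers PTPRC and CD3E were at 0.0276 FPKM or less there. Some libraries stood apart from their labels. By the correlation of log2 levels over genes, blank replicate 1 was closest to OE-LINC01134 replicate 2 (0.952, against 0.937 or less with its own group), and siSRSF1-3 replicate 3 was closest to siSRSF1-2 replicate 1 (0.960, against 0.922 or less). By contrast, blank replicates 2 and 3, OE-LINC01134 replicates 1 and 3 and all siSRSF1-2 replicates differed from each other by only 1.94 to 2.73 times the counting variance, where the other pairs of one group differed by 23.5 to 96.5 times.

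The levels spanned a wide range. NEAT1 was the highest of the 8 genes in 9 of 12 libraries, and DANCR was the highest in the other 3, blank replicate 1 and siSRSF1-3 replicates 1 and 2. NEAT1, NORAD, DANCR and MALAT1 had means over the 12 libraries of 103, 75.1, 90.1 and 47.5 FPKM. PVT1 followed with 15.9 FPKM, NKILA with 5.19 FPKM and DIRC3 with 3.82 FPKM. KCNQ1OT1 was lowest in every library, with a mean of 0.0477 FPKM. The range within a gene differed as much: the highest library was 1.70 times the lowest for NEAT1 and 60.8 times the lowest for DIRC3. Together the 8 genes took between 0.210% and 0.434% of the reads on genes.

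**Figure D1:**
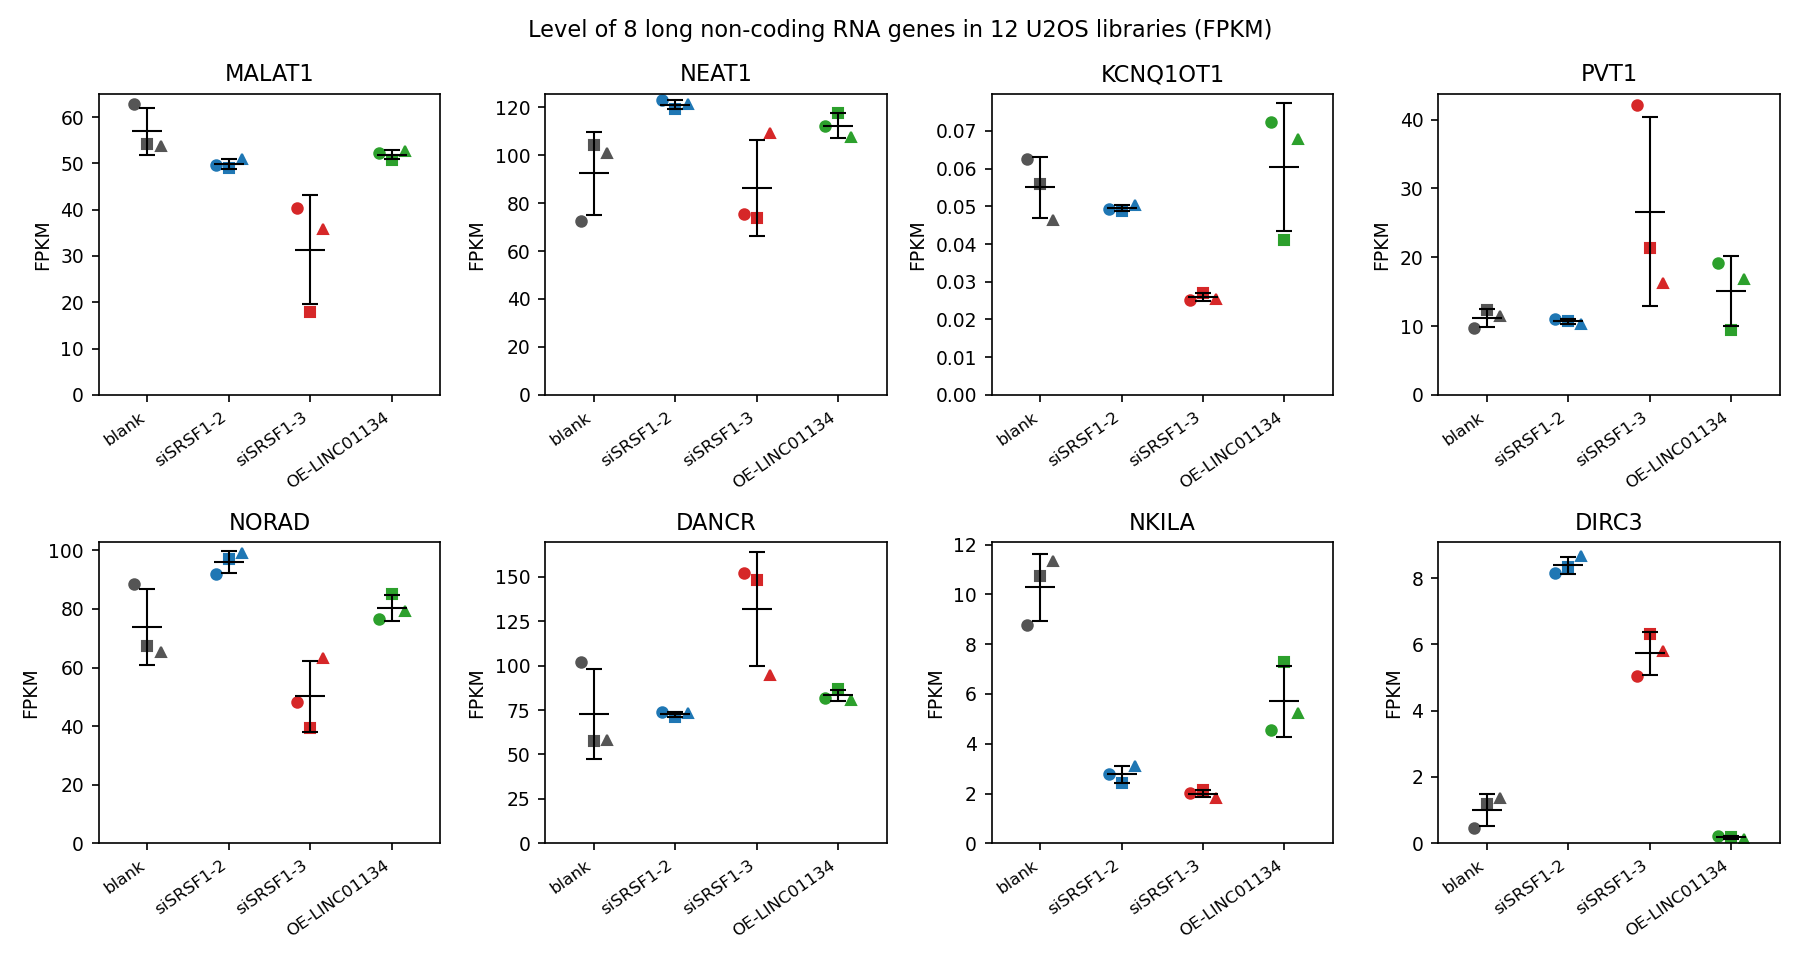
FPKM of each gene (y axis, from 0, one scale per panel) in the 4 groups (x axis), with circles, squares and triangles for replicates 1, 2 and 3 and a black bar for the mean ± SD (n = 3). DIRC3 lay between 5.05 and 8.66 FPKM in the siRNA libraries and at 1.36 FPKM or less in the others, while DANCR, PVT1 and MALAT1 were widely spread within siSRSF1-3.

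Groups were compared in pairs by limma fits of log2(FPKM + 0.1). Of all genes, 17538 reached the minimum mean of 0.5 FPKM, and a gene passed with a Benjamini-Hochberg adjusted p under 0.05 over all these genes and an absolute log2 fold change over 1. Fold changes, with their standard errors (SE), are on this log2 scale, which understates those of low genes. KCNQ1OT1 was under the minimum, so 7 of the 8 genes were fitted, and NEAT1, MALAT1, NORAD, DANCR and PVT1 were tested in every comparison. Of these 5 genes 0 passed in siSRSF1-3 against blank (1.26% of all genes tested), in siSRSF1-2 against blank (4.95%), in OE-LINC01134 against blank (0.85%) and in siSRSF1-3 against siSRSF1-2 (0.0855%). At an unadjusted p under 0.05 the counts were 3, 3, 0 and 4 of 5, where 28.8%, 40.3%, 26.3% and 42.1% of all genes had such a p, and limma's voom on the recovered reads also gave 0 in each. In siSRSF1-2 against OE-LINC01134, which uses none of the libraries of siSRSF1-3 against blank, DIRC3 was tested as well, and 1 of 6 genes passed, DIRC3 (6.69% of all genes). The levels of DIRC3 in these libraries were also known when it was chosen, so its p is not independent of the choice.

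**Figure D2:**
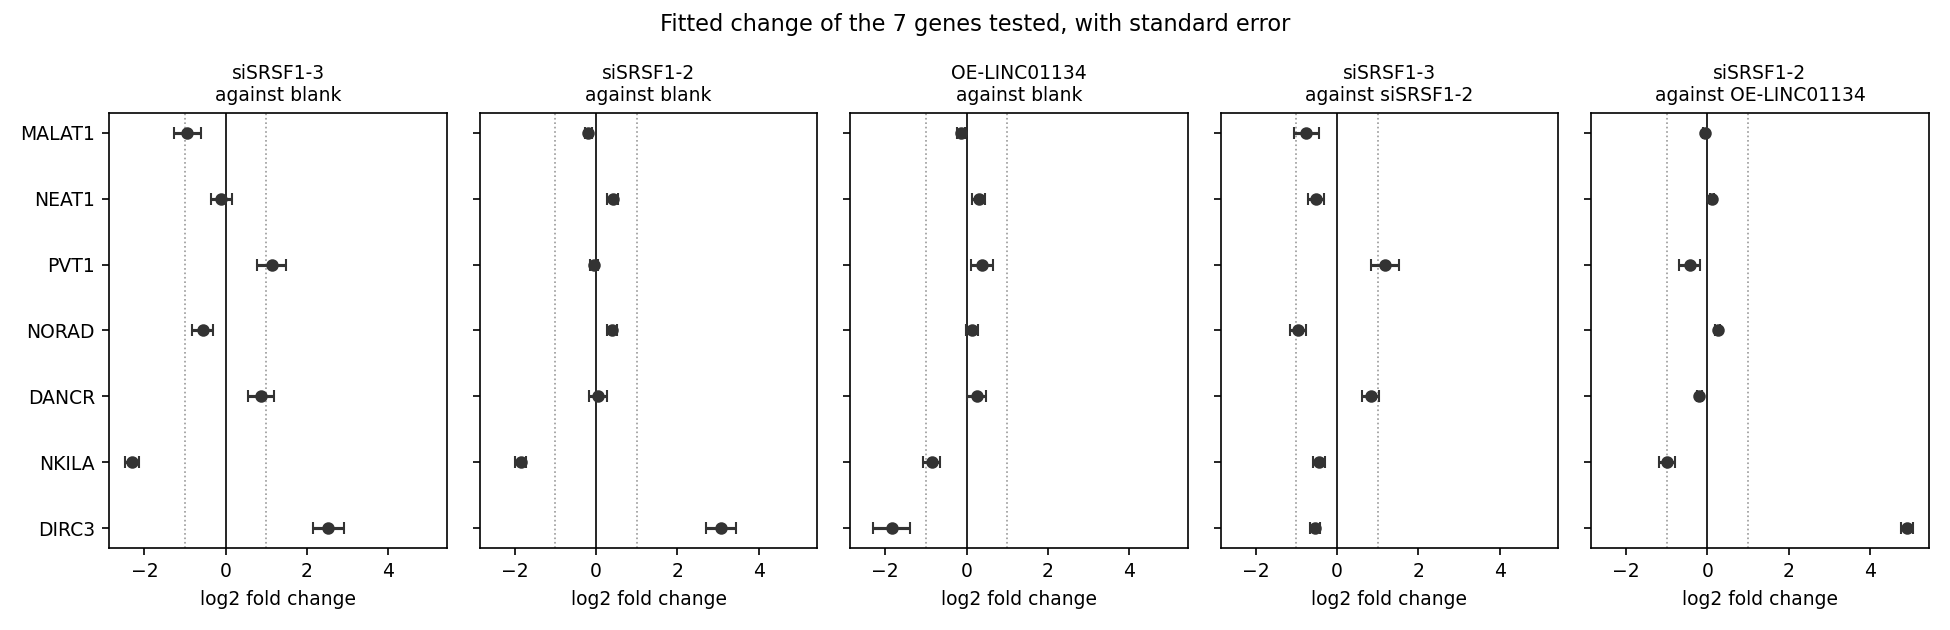
Fitted log2 fold change (x axis) of the 7 genes fitted (y axis) in the 5 comparisons, with the standard error as a bar and dotted lines at the fold change threshold on each side. DIRC3 reached 4.91 in siSRSF1-2 against OE-LINC01134, and PVT1 (1.13) lay beyond the dotted line in siSRSF1-3 against blank without passing the test.

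NEAT1 (ENSG00000245532) lies on chromosome 11 from 65422774 to 65445540, plus strand. The sources used here do not give the genome build of these coordinates. Its FPKM was 72.4, 104 and 101 in blank, 123, 119 and 121 with siSRSF1-2, 75.7, 73.9 and 109 with siSRSF1-3, and 112, 118 and 107 in OE-LINC01134. Every siSRSF1-2 and OE-LINC01134 library lay above every blank library, while siSRSF1-3 overlapped with blank. The log2 fold change against blank was 0.41 (SE 0.143, limma adjusted p = 0.0838) with siSRSF1-2, 0.30 (adjusted p = 0.269) in OE-LINC01134 and -0.10 (adjusted p = 0.799) with siSRSF1-3. None of these passed the threshold. Between the siRNAs it was -0.51 (SE 0.191, adjusted p = 0.104).

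MALAT1 (ENSG00000251562) lies downstream of NEAT1 on chromosome 11, from 65497688 to 65506516, plus strand. Its FPKM was 62.9, 54.2 and 53.8 in blank, 49.6, 48.9 and 51.0 with siSRSF1-2, 40.3, 17.9 and 35.8 with siSRSF1-3, and 52.3, 50.7 and 52.7 in OE-LINC01134. All 9 treated libraries lay below every blank library, by little except with siSRSF1-3, where replicate 2 was lowest. The log2 fold change against blank was -0.94 (SE 0.323, limma adjusted p = 0.128) with siSRSF1-3, -0.19 (adjusted p = 0.120) with siSRSF1-2 and -0.13 (adjusted p = 0.442) in OE-LINC01134. Without siSRSF1-3 replicate 2, the siSRSF1-3 value was -0.58. The ratio of NEAT1 to MALAT1 within a library, which library scaling does not move, was 1.15, 1.92 and 1.88 in blank, 2.48, 2.44 and 2.38 with siSRSF1-2, 1.88, 4.12 and 3.05 with siSRSF1-3 and 2.14, 2.32 and 2.04 in OE-LINC01134. It was above every blank library in each siSRSF1-2 and OE-LINC01134 library and in 2 of the 3 siSRSF1-3 libraries.

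The mRNAs of the listed proteins of these nuclear bodies did not pass the test in any comparison. Of 13 paraspeckle proteins, 0 passed in any of the 5 comparisons, and their median log2 fold change against blank was -0.06 with siSRSF1-3, -0.09 with siSRSF1-2 and 0.07 in OE-LINC01134. SFPQ, an RNA-binding protein of paraspeckles, had -0.07 (limma adjusted p = 0.860) with siSRSF1-3, and its partner NONO had -0.11 (adjusted p = 0.738). Of 10 nuclear speckle proteins, a list without the siRNA target SRSF1, 0 passed as well, with medians of -0.13, 0.06 and 0.22. SRSF1 itself fell by 1.72 on the log2 scale with siSRSF1-2 (limma adjusted p = 0.00500). With siSRSF1-3 its log2 fold change was -2.09 (adjusted p = 0.0518), which missed the threshold. A gene can thus change that much with siSRSF1-3 without passing. At an unadjusted p under 0.05 the counts lay between 1 and 7 for the paraspeckle list and between 2 and 7 for the speckle list, where 26.3% to 42.1% of all genes had such a p, and voom gave 0 for both in every comparison. In siSRSF1-2 against blank, SRRM2 (0.62, limma adjusted p = 0.0125) and SON (0.54, adjusted p = 0.0190) were higher, under the minimum fold change. SRSF7 (-0.53, adjusted p = 0.00724) and, of the paraspeckle list, HNRNPH3 (-0.53, adjusted p = 0.0124) were lower, also under it. The median of all genes tested was -0.01 in siSRSF1-3 against blank. FRMD8, the nearest protein-coding gene on the NEAT1 side of the pair, differed from blank by -0.72 on the log2 scale with siSRSF1-3 (adjusted p = 0.105).

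KCNQ1OT1 (ENSG00000269821) is an antisense RNA known for silencing imprinted genes around KCNQ1, and lies within KCNQ1 on the other strand of chromosome 11, from 2608328 to 2699994. The table gives it a length of 91667 bases, so that its FPKM of 0.0250 to 0.0723 rested on 45 to 192 reads per library. Whether reads were counted by strand is not given in the sources used here. KCNQ1OT1 had 159, 146 and 139 reads in blank, 130, 132 and 164 with siSRSF1-2, 45, 63 and 73 with siSRSF1-3, and 192, 103 and 178 in OE-LINC01134. In FPKM every siSRSF1-3 library lay below the other 9 libraries. With limma's voom on the reads, over genes with a mean of at least 10 reads, a setting added after the data were seen, the log2 fold change in siSRSF1-3 against blank was -1.06 (SE 0.275, adjusted p = 0.0632), which missed the threshold. The other comparisons with blank gave -0.13 (siSRSF1-2, adjusted p = 0.556) and 0.11 (OE-LINC01134, adjusted p = 0.803).

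Of 7 genes of the imprinted domain 5 were tested. CDKN1C, an inhibitor of cyclin-dependent kinases and the nearest protein-coding gene after KCNQ1OT1, was at 3.70, 5.15 and 4.73 FPKM in blank and at 14.2, 8.97 and 5.27 FPKM with siSRSF1-3, a log2 fold change of 0.95 (limma adjusted p = 0.146). All 5 had a value above 0 with siSRSF1-3, with a median of 1.11, and 0 passed with limma or voom. In the single siSRSF1-3 libraries the list medians relative to blank were 1.70, 1.41 and 0.23, so replicate 3, the library closest to siSRSF1-2, was near blank. At an unadjusted p under 0.05 there were 4 of the 5, beside 28.8% of all genes. PHLDA2, another imprinted gene of the domain, was at 22.01, 41.9 and 36.0 FPKM in blank and at 8.06, 11.2 and 9.71 FPKM in OE-LINC01134, and fell by 1.74 on the log2 scale (adjusted p = 0.0410). That call was lost without OE-LINC01134 replicate 1 or 3 and without blank replicate 2 or 3, with values of -2.01 to -1.55 over the omissions of single libraries.

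NORAD (ENSG00000260032) lies on chromosome 20 from 36045622 to 36050960, minus strand. Its FPKM was 88.6, 67.5 and 65.4 in blank, 91.8, 97.1 and 99.1 with siSRSF1-2, 48.2, 39.3 and 63.2 with siSRSF1-3, and 76.6, 85.1 and 79.4 in OE-LINC01134. The siSRSF1-2 libraries lay above every blank library and the siSRSF1-3 libraries below every one. The log2 fold change against blank was 0.39 (SE 0.124, limma adjusted p = 0.0641) with siSRSF1-2 and -0.57 (SE 0.249, adjusted p = 0.182) with siSRSF1-3. Compared directly, siSRSF1-3 was at -0.96 relative to siSRSF1-2 (SE 0.197, adjusted p = 0.0749), which missed the threshold. Without single libraries that value lay between -1.14 (adjusted p = 0.00196, without siSRSF1-3 replicate 3) and -0.80 (adjusted p = 0.229, without siSRSF1-3 replicate 2). Without siSRSF1-3 replicate 3, 2807 of the 17538 genes tested passed higher and 2551 lower. NORAD was also higher in siSRSF1-2 than in OE-LINC01134, by 0.26 (SE 0.0634, adjusted p = 0.0294), under the minimum fold change.

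NORAD is known to bind PUM2, a translational repressor. PUM2 was at 20.9, 18.2 and 18.9 FPKM in blank and at 25.0, 25.4 and 25.7 FPKM with siSRSF1-2, a log2 fold change of 0.39 (SE 0.0691, limma adjusted p = 0.0110), under the minimum fold change. With siSRSF1-3 its log2 fold change was -0.10 (adjusted p = 0.741). KHDRBS1 was listed with PUM2 among the NORAD-binding proteins and named after its values were seen. It went the other way with siSRSF1-2, at -0.26 (adjusted p = 0.0986). With siSRSF1-3, where PUM2 was also below 0, KHDRBS1 had -0.55 (adjusted p = 0.127). KHDRBS1 lay below every blank library with both siRNAs. EPB41L1, a cytoskeletal protein gene and the nearest protein-coding neighbour after NORAD, fell by 1.10 on the log2 scale with siSRSF1-2 (adjusted p = 0.00121).

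DANCR (ENSG00000226950), a lncRNA first known for holding back differentiation, lies on chromosome 4 from 52712404 to 52720351, plus strand, and overlaps the small RNA genes SNORA26 and MIR4449. Its FPKM was 102, 57.8 and 58.1 in blank, 73.7, 70.9 and 73.3 with siSRSF1-2, 152, 148 and 94.8 with siSRSF1-3, and 81.9, 86.9 and 80.9 in OE-LINC01134. Blank replicate 1 was higher than siSRSF1-3 replicate 3, so these groups overlapped. The log2 fold change in siSRSF1-3 against blank was 0.88 (SE 0.321, limma adjusted p = 0.138). It passed with 1.10 (adjusted p = 0.0354) without siSRSF1-3 replicate 3, and was lowest, at 0.74 (adjusted p = 0.342), without blank replicate 2. Without siSRSF1-3 replicate 3, 2192 of the 17538 genes tested passed higher and 1992 lower, where 58 and 163 passed with it. Against siSRSF1-2 the log2 fold change of DANCR was 0.83 (SE 0.216, adjusted p = 0.0801), with every siSRSF1-3 library higher. Between siSRSF1-2 and OE-LINC01134 the log2 fold change of DANCR was -0.20 (SE 0.0536, adjusted p = 0.0408), under the minimum fold change.

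PVT1 (ENSG00000249859) lies on chromosome 8 from 127794533 to 128101253, plus strand, 53098 bases past MYC, the oncogene with which it is often amplified in tumors. Its FPKM was 9.73, 12.3 and 11.5 in blank, 11.1, 10.7 and 10.3 with siSRSF1-2, 42.2, 21.4 and 16.3 with siSRSF1-3, and 19.1, 9.43 and 16.8 in OE-LINC01134. Every siSRSF1-3 library was above every blank and siSRSF1-2 library, with replicate 1 highest, while OE-LINC01134 replicate 2 lay at the blank level. The log2 fold change was 1.13 (SE 0.351, limma adjusted p = 0.109) in siSRSF1-3 against blank and 1.19 (SE 0.344, adjusted p = 0.0834) against siSRSF1-2. In a single fit over all 4 groups both passed, with adjusted p of 0.0302 and 0.0251. That fit passed many more of the 17538 genes. Against blank, 1245 were higher and 1177 lower, where the main fit gave 58 and 163. Against siSRSF1-2 it gave 1472 and 1259, where the main fit gave 6 and 9. MYC was at 81.9, 94.9 and 92.3 FPKM in blank and at 108, 147 and 142 FPKM with siSRSF1-3, a log2 fold change of 0.55 (adjusted p = 0.160). With siSRSF1-2 MYC had 0.26 (adjusted p = 0.0451), under the minimum fold change, where PVT1 had -0.05 (adjusted p = 0.721).

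**Figure D3:**
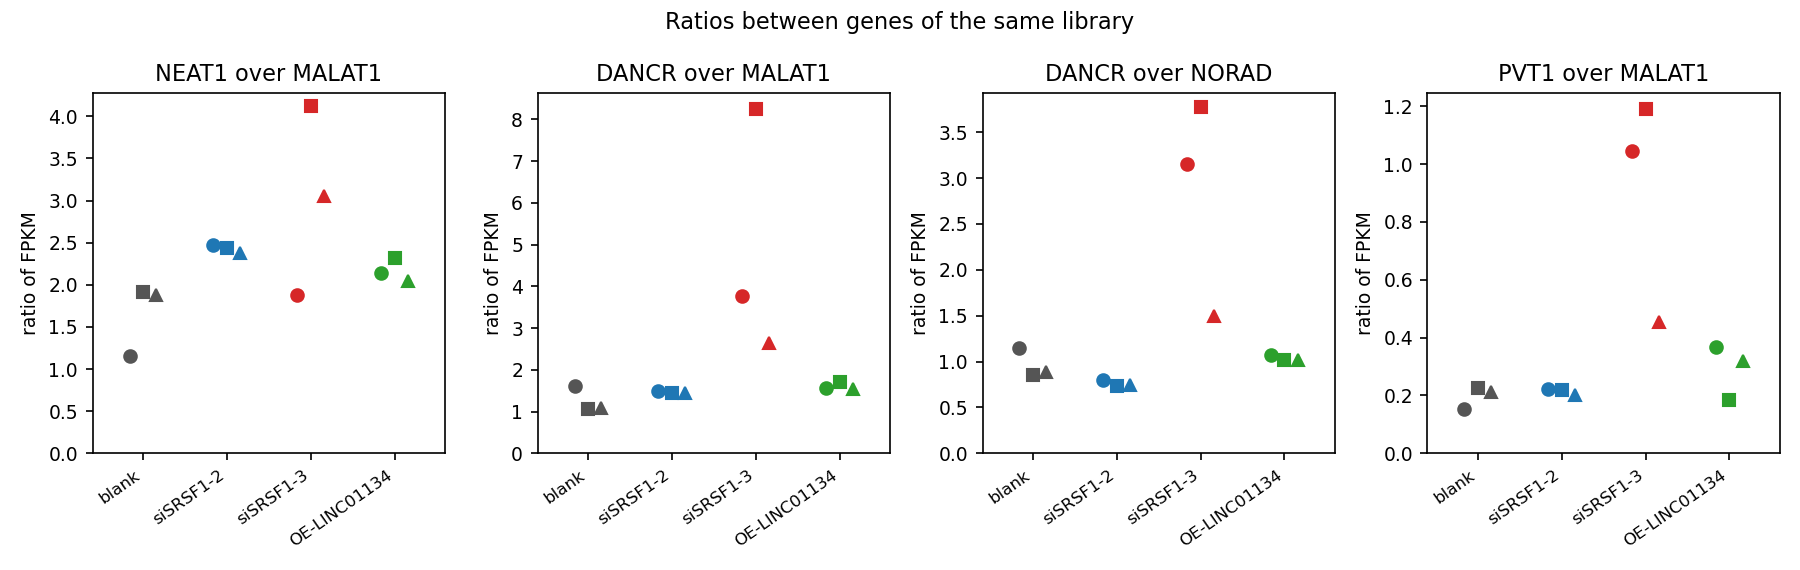
Ratio of the FPKM of the named genes (y axis, from 0) within each library of the 4 groups (x axis), with circles, squares and triangles for replicates 1, 2 and 3. DANCR over NORAD was 3.16, 3.77 and 1.5 with siSRSF1-3 and between 0.730 and 1.15 in the other libraries.

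The siSRSF1-3 libraries were spread in these ratios. DANCR over NORAD was 3.16, 3.77 and 1.5 in replicates 1 to 3, against 0.730 to 1.15 in the other 9 libraries, and PVT1 over MALAT1 was 1.05, 1.19 and 0.454, against 0.155 to 0.366. Replicate 3 was nearest to the other groups in both ratios. Changes by gene length also differed between the libraries, though not in the same order. The median log2 change relative to blank was 0.36, 0.27 and 0.10 in replicates 1 to 3 for the 6354 genes tested under 2500 bases, a class that holds DANCR (2285 bases). For the 6428 genes of 5000 bases or more, which include NORAD (5339 bases), PVT1 (5493 bases), MALAT1 and NEAT1, it was -0.29, -0.23 and 0.02. Replicate 1 was thus farthest from blank by length and replicate 2 in both ratios, and PVT1 was above blank while the genes of its length class had a median below 0 in replicates 1 and 2. The part of length in the changes of the single genes was not tested. The FPKM implied library sizes of 0.712 and 0.888 times the reads on genes in replicates 1 and 2 and 0.990 to 1.09 times in the other libraries. Scaling each library to its own reads moved the median of all genes from -0.01 to -0.26 in siSRSF1-3 against blank, and rescaling to the same sum moved it to -0.43. Under the latter DANCR was at 0.43, PVT1 at 0.69, NORAD at -1.01 and MALAT1 at -1.38, with the same signs.

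NKILA (ENSG00000278709) is known as an inhibitor of NF-kB signaling that binds the complex of NF-kB with its inhibitor. It lies on chromosome 20 from 57710183 to 57712780, plus strand. NKILA was at 8.77, 10.7 and 11.3 FPKM in blank, 2.77, 2.44 and 3.10 with siSRSF1-2, 2.02, 2.13 and 1.84 with siSRSF1-3, and 4.54, 7.30 and 5.25 in OE-LINC01134. These values rested on 103 to 963 reads, and the 4 groups did not overlap with each other. The ratio of means to blank was 0.194 with siSRSF1-3 and 0.270 with siSRSF1-2, given without a test. In OE-LINC01134 the log2 fold change against blank was -0.86 (SE 0.201), with -1.05 to -0.71 when single libraries were left out. It was -0.99 (SE 0.192) in siSRSF1-2 against OE-LINC01134 and -0.45 (SE 0.150) between the siRNAs. These too are descriptions, since each uses libraries known when the gene was chosen.

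The first 1354 bases of NKILA overlap PMEPA1, a TGF-beta response gene on the other strand. PMEPA1 was at 68.8, 59.1 and 58.5 FPKM in blank, 32.9, 33.5 and 32.9 with siSRSF1-2, 61.5, 56.4 and 42.1 with siSRSF1-3, and 34.4, 102 and 33.8 in OE-LINC01134. Its order of groups was unlike that of NKILA, since siSRSF1-3 had the lowest NKILA and 2 libraries near the blank level of PMEPA1. Without strand, reads from the shared bases cannot be told apart. Of 9 core genes of NF-kB signaling 0 passed in any comparison, with medians against blank of 0.05 (siSRSF1-3), 0.22 (siSRSF1-2) and 0.12 (OE-LINC01134). With voom 0 passed as well, and 1 to 5 had an unadjusted p under 0.05, where 26.3% to 42.1% of all genes had such a p. NFKBIA, which encodes the inhibitor of NF-kB and is itself an NF-kB target, had 0.58 (SE 0.396, limma adjusted p = 0.344) with siSRSF1-3, with blank libraries at 21.1, 55.0 and 55.5 FPKM.

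DIRC3 (ENSG00000231672), named for a chromosome break in familial renal cancer, lies on chromosome 2 from 217284019 to 217756593, minus strand. Its FPKM was 0.449, 1.19 and 1.36 in blank, 8.14, 8.35 and 8.66 with siSRSF1-2, 5.05, 6.32 and 5.81 with siSRSF1-3, and 0.229, 0.180 and 0.142 in OE-LINC01134. The groups were fully separated, in the order OE-LINC01134, blank, siSRSF1-3 and siSRSF1-2. DIRC3 had 58, 158 and 207 reads in blank, 1091, 1150 and 1433 with siSRSF1-2, 462, 750 and 845 with siSRSF1-3, and 31, 23 and 19 in OE-LINC01134, so the lowest group rested on few reads. The mean with siSRSF1-3 was 5.73 times that in blank, given without a test. With siSRSF1-2 the log2 fold change against the same blank libraries was 3.07 (SE 0.366), and in OE-LINC01134 it was -1.84 (SE 0.457). Over the settings tried these values ran from 2.26 to 3.33 and from -2.31 to -0.72. Between the siRNAs DIRC3 differed by -0.55 (SE 0.124). These are given without a test, since they use blank or siSRSF1-3 libraries. In siSRSF1-2 against OE-LINC01134 the log2 fold change was 4.91 (SE 0.152, limma adjusted p = 6.91e-05), and 4.80 to 5.02 when single libraries were left out. Its size depended on the pseudocount, because OE-LINC01134 was close to 0, with 2.99 at a pseudocount of 1 and 5.46 at 0.01. The levels of DIRC3 in these libraries were known when it was chosen, so this test is not independent of the choice.

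**Figure D4:**
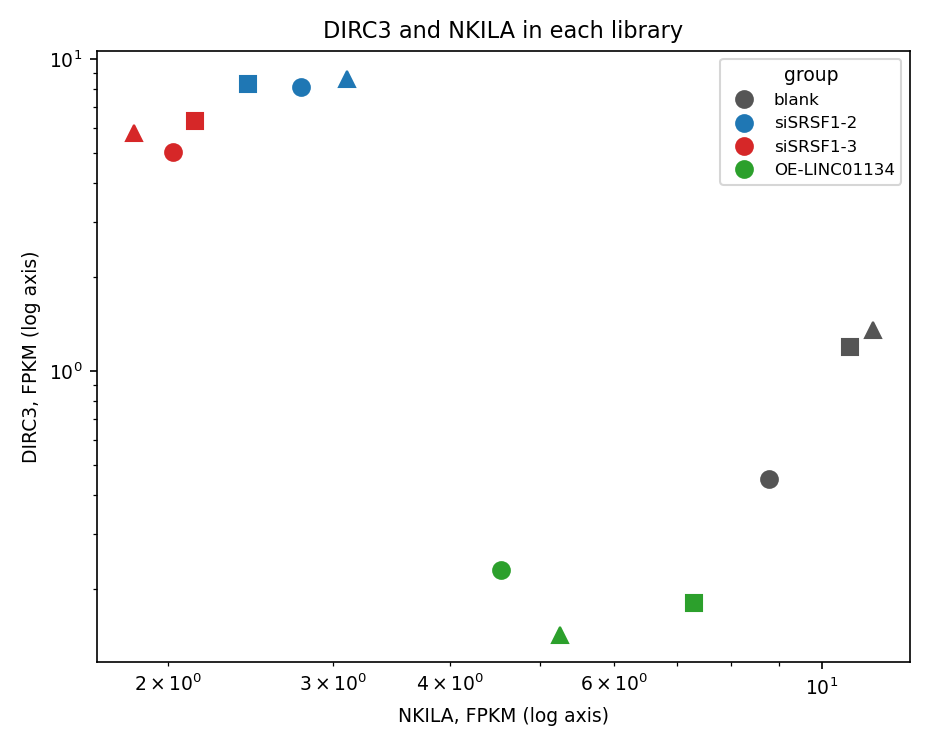
FPKM of DIRC3 (y axis, log scale) against FPKM of NKILA (x axis, log scale) in the 12 libraries, colored by group, with circles, squares and triangles for replicates 1, 2 and 3. All 6 siRNA libraries lay at high DIRC3 and low NKILA, with a ratio of 2.50 to 3.42, and the other 6 had a ratio of 0.0247 to 0.120.

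DIRC3 exceeded NKILA in all 6 siRNA libraries, with a ratio of 2.50 to 3.42, and was below it in all 6 others, with a ratio of 0.0247 to 0.120. DIRC3 lies between IGFBP5 and TNS1, and has been described as acting on IGFBP5, which encodes a binding protein for insulin-like growth factors. IGFBP5 was at 11.5, 14.5 and 14.3 FPKM in blank, 5.84, 6.18 and 5.56 with siSRSF1-2, 3.34, 3.55 and 4.21 with siSRSF1-3, and 4.41, 21.4 and 4.42 in OE-LINC01134. With siSRSF1-2 it fell by 1.18 on the log2 scale (limma adjusted p = 0.00208). With siSRSF1-3 the log2 fold change of IGFBP5 was -1.83 (adjusted p = 0.0316), a call that held in 2 of 6 omissions of single libraries. In OE-LINC01134 replicate 2 stood apart from the other libraries, and the value was -0.82 (adjusted p = 0.404). TNS1, a focal adhesion protein gene 42994 bases past DIRC3, had -0.82 (adjusted p = 0.0158) with siSRSF1-2, under the minimum fold change. DIRC3-AS1, on the other strand within the locus, lay between 0 and 1.15 FPKM over the 12 libraries.

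Of the 5 genes tested throughout, libraries of the groups did not overlap for 3 in siSRSF1-3 against blank (37.2% of all genes tested), 3 in siSRSF1-2 against blank (49.5%), 2 in OE-LINC01134 against blank (30.6%) and 5 in siSRSF1-3 against siSRSF1-2 (54.6%). In siSRSF1-2 against OE-LINC01134 it was 4 of 6, DIRC3 included (48.1%). In that comparison 3 of the 6 had an adjusted p under 0.05 from limma without a minimum fold change, DIRC3, NORAD and DANCR, beside 27.7% of all genes. DIRC3 was chosen with its levels in these libraries known, so its place in the counts is not independent of the choice. Comparisons with blank share the blank libraries.

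Other cancer-linked lncRNAs, host genes of small nucleolar RNAs included, were set beside these genes as a list of 46, of which 31 were tested. With siSRSF1-3, 24 had a value above 0 and 7 below, with a median log2 fold change of 0.77, and 1 passed. Host genes were among the highest, such as SNHG5 (1.88), SNHG8 (1.66) and SNHG17 (1.49), though SNHG14 had -1.43. The part of host genes in the list median was not tested. The median was -0.01 for all genes and 0.21 for all 2555 tested genes of the lincRNA, antisense and processed transcript classes, and the list itself had 0.03 with siSRSF1-2. Relative to the mean of blank, the single siSRSF1-3 libraries had list medians of 1.33, 0.64 and 0.25. The 1 gene that passed was UCA1, a lncRNA first described in bladder cancer, which was at 10.4, 13.6 and 13.2 FPKM in blank and at 4.89, 3.64 and 3.69 FPKM with siSRSF1-3. UCA1 also fell by 1.75 with siSRSF1-2 (limma adjusted p = 0.00105) and by 2.21 in OE-LINC01134 (adjusted p = 0.0143), both on the log2 scale, so it was lower in all 9 treated libraries. Its call with siSRSF1-3 (log2 fold change -1.59, adjusted p = 0.0426) held in 1 of 6 omissions of single libraries and that in OE-LINC01134 in 2 of 6. In siSRSF1-2 against OE-LINC01134, LUCAT1 was higher by 1.21 (adjusted p = 0.00231) and TP53TG1 fell by 1.28 (adjusted p = 0.00165). Of the 2555 non-coding genes, which include the 7 fitted here, 12 were higher and 14 lower with siSRSF1-3, 107 and 79 with siSRSF1-2, and 7 and 17 in OE-LINC01134.

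For each gene, the 3 genes most like it were taken by Pearson's correlation of log2(FPKM + 0.1) over the 12 libraries, as a description, since the libraries share groups and depth. For DIRC3 they were ARHGAP39 (0.989), RASGRF1 (0.986) and FBXO31 (0.984), each with its 2 highest group means in the siRNA groups and its lowest in OE-LINC01134. For NKILA they were UACA (0.969), CSPG5 (0.951) and CNRIP1 (0.948). For NORAD they were ZNF24 (0.988), ATRX (0.982) and VPS35 (0.977), and for DANCR PIAS4 (0.984), PUF60 (0.974) and PUS1 (0.970). PVT1 was most like RPF2 (0.981), a ribosome production factor, MALAT1 most like CMTM1 (0.962), and KCNQ1OT1, among genes with a name, most like SESN1 (0.938). NEAT1 was most like a 5S ribosomal RNA pseudogene (0.956) and TPPP (0.939).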

How the data were processed

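RNA from 12 U2OS libraries, 3 replicates in each of 4 groups taken from the sample labels, was analysed. The authors deposited FPKM per gene and library, with gene lengths, coordinates and full names. The aligner, counting program, strand setting and human genome build are not given in the sources used here. The labels name the SMARTer library kit and mouse builds, and the supplementary methods another kit, with poly-T selection and 150 bp paired-end reads, so capture of RNAs without a poly(A) tail may be uneven. FPKM times length was a whole multiple of a step in 100% of values (tolerance 0.01 read), which gave reads per gene, from 26237763 to 32954539 per library.

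Pairs of groups were compared with limma 3.58.1 in R 4.3.3 on log2(FPKM + 0.1), with a mean-variance trend, over 17538 of 58735 genes with a mean of at least 0.5 FPKM. The threshold was an adjusted p of 0.05 and an absolute log2 fold change of 1. The fits were also run on simulated reads with the same spread for every gene and no libraries that stood apart. That differs from these libraries, so the simulation gives no error rate for them. Symbols were matched by full name, 128 of 131. The genes described and the lists were chosen with earlier results of these data known. NKILA in all comparisons and DIRC3 in all but siSRSF1-2 against OE-LINC01134 were fitted but not tested, since these share libraries with the changes known at the choice. Named genes were the 8 lncRNA genes, the targets, overlapping and neighbouring genes, the 3 most correlated genes each, list members past the threshold and 8 fixed partners. A few of these genes are not reported here. Alternatives were other pseudocounts, filters and scalings, voom, other variance models, a replicate block, no minimum fold change and omission of libraries.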

Additional observations from a re-analysis of the deposited data

Results flagged for a closer look

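Groups of 3 libraries were too small for a check of single libraries. By another check, every library of one group lay above the blank mean of log2(FPKM + 0.1) and every library of another below it. For NORAD the changes were -0.57 with siSRSF1-3 and 0.39 with siSRSF1-2, a difference of -0.96 (adjusted p = 0.0749 from limma), and -0.57 against 0.13 in OE-LINC01134, a difference of -0.70 that was not tested. For PVT1 they were 1.13 with siSRSF1-3 and -0.05 with siSRSF1-2, a difference of 1.19 (limma adjusted p = 0.0834). The siSRSF1-2 libraries of PVT1 lay at -0.004, -0.051 and -0.105, so replicate 1 was barely below the blank mean. For DIRC3 the siSRSF1-3 and OE-LINC01134 changes differed by 4.36, which was not tested. Those of siSRSF1-2 and OE-LINC01134 differed by 4.91 (limma adjusted p = 6.91e-05, not independent of the choice of the gene). All these changes share the blank libraries. The share of all genes that meet this check was not computed.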

How the results depend on the processing

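Single libraries decided several calls. Of the 5 genes tested in every comparison, 0 passed in siSRSF1-3 against blank, with 0 to 2 when single libraries were left out. The 2 were DANCR and PVT1 without siSRSF1-3 replicate 3, and in 1 fit over all 4 groups the count was 1 (PVT1). Without that replicate 2192 of all 17538 genes passed higher and 1992 lower. The fit over all 4 groups gave 1245 and 1177, and the main fit 58 and 163. In siSRSF1-3 against siSRSF1-2 the count for the 5 genes was 0, with 0 to 3 when single libraries were left out. It was 3 without siSRSF1-3 replicate 3, where 2807 of all genes passed higher and 2551 lower. In 1 fit over all 4 groups it was 1, where 1472 and 1259 passed. In siSRSF1-2 against blank and in OE-LINC01134 against blank the count for the 5 genes was 0 in every setting tried. In siSRSF1-2 against OE-LINC01134 6 genes were tested, and the count was 1 (DIRC3, chosen with these levels known). It was also 1 with each single library left out, and 3 without a minimum fold change. With near-identical replicates averaged, which leaves siSRSF1-2 as 1 library, it was 0, while the log2 fold change of DIRC3 stayed at 4.91. Averaging, voom over genes with at least 10 reads and the joint omission of blank replicate 1 and OE-LINC01134 replicate 2 were chosen after the data were seen. For the other changes the cause was not tested.

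The replicate numbers did not pair the libraries, since same-numbered libraries deviated with correlations of -0.0815 to 0.0420. With the replicate block the count was 0, 0, 0, 0 and 1 in the 5 comparisons, as without it.

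Of 499 values of single genes with a test under other settings, 484 kept their direction and side of the threshold, 9 newly passed, 1 no longer passed and 5 reversed, all 5 of them small changes with siSRSF1-2 against blank. Of 173 values of DIRC3 and NKILA without a test, 161 moved by less than the spread between replicates and 12 by more, and all 173 kept their direction. DANCR went from 0.05 to between -0.0837 (without blank replicate 2) and 0.325 (without blank replicate 1), and to -0.0819 with near-identical replicates averaged. PVT1 went from -0.05 to between -0.148 (without blank replicate 1) and 0.0176 (without blank replicate 2), and to 0.0776 when all libraries were given the same FPKM sum. Depth limited KCNQ1OT1 (45 to 192 reads) and DIRC3 in OE-LINC01134 (19 to 31 reads).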
